A study of Homo sapiens with 24 samples.

Results

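The genes of drug metabolism described here are the cytochrome P450 genes of families CYP1 to CYP4, the UDP-glucuronosyltransferase genes UGT1A and UGT2B, the cytosolic glutathione S-transferase genes GSTA, GSTM, GSTP, GSTO and GSTT, and the sulfotransferase genes SULT1 and SULT2. They were taken by symbol, with antisense genes left out, which gave 54 of the 18915 genes in the count table. HepG2, an established human hepatoma line, was exposed for 10 h in fresh complete medium to DMSO as vehicle, to ISRIB at 50 nM, to nelfinavir at 20 µM, to bortezomib at 50 nM, or to bortezomib at 50 nM with either nelfinavir at 20 µM or ISRIB at 50 nM. Each of these 6 conditions has 4 biological replicates by the labels, and all libraries come from this 1 line, so the p-values describe the spread between cultures of HepG2 and not between people. The DMSO group is the only one without a drug, and every condition shares the medium, the serum and the antibiotics. Bortezomib inhibits the proteasome, nelfinavir is an antiviral protease inhibitor that also activates the integrated stress response, and ISRIB opposes that response downstream of eIF2α phosphorylation.

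Liver cells clear foreign and endogenous lipophilic compounds in successive steps. P450 enzymes oxidise a substrate with electrons passed on from NADPH by the reductase POR, and transferases then attach glucuronic acid, glutathione or sulfate to it, after which transporters export the product. Many of these genes answer to ligand-activated receptors: the aryl hydrocarbon receptor acts on CYP1 genes, and PXR and CAR act on CYP2, CYP3, UGT and SULT genes. HepG2 is known to hold little of the main adult liver P450 enzymes.

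The libraries hold between 5154533 and 6943164 counts on genes. Levels are given as CPM, counts scaled to a common library size with edgeR's TMM factors, and since each molecule gives reads from its 3′ end only, CPM was not divided by length. All 8 hepatocyte markers examined were present, with a sum of 13000 to 14500 CPM in DMSO, 10100 to 10700 in bortezomib and 6680 to 8590 in bortezomib with nelfinavir, and the part of this in the results was not tested. Markers of other liver cells were low or not analysed here: CD68 stayed at or under 5.2 CPM, the summed fibroblast markers at or under 1.26 CPM, and KRT7 had 1 count in all, while the summed cholangiocyte markers, nearly all EPCAM, lay at 235 to 243 CPM in DMSO, 285 to 323 in bortezomib, 172 to 248 with nelfinavir added to it, 233 to 290 with ISRIB added to it, 166 to 222 in nelfinavir and 198 to 228 in ISRIB, and their part in the results was not tested. Mitochondrially encoded genes took a mean of 20.5% to 21.9% of the counts in the 3 groups without bortezomib, against 33.8% with bortezomib, 27.2% with nelfinavir added to it and 36.1% with ISRIB added to it. With those genes removed before the fit, the number of drug-metabolism genes called was the same in all 7 comparisons in both directions. Both fits were scaled by TMM factors, and the part of the mitochondrial share in the results was not tested. In bulk RNA a loss of cells that hold a transcript and a loss of transcript per cell cannot be told apart.

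Of the 54 genes, 27 passed the expression filter that left 12685 genes to test, 11 of 24 P450 genes, 5 of 10 UGT genes, 6 of 10 GST genes and 5 of 10 SULT genes. The 27 genes under the filter had between 1 and 64 counts over all 24 libraries, and they include most of the P450 enzymes that carry drug oxidation in adult liver. CYP3A4 had 19 counts in all, CYP2D6 30, CYP2E1 5, CYP2C8 2, CYP2B6 4 and CYP1A2 14. Among the transferases, GSTP1 had 41 counts, GSTA1 31, GSTA2 64, UGT2B4 24, UGT2B15 3 and UGT2B17 3. The estrogen sulfotransferase SULT1E1 had 6, 8 and 7 counts over the DMSO, ISRIB and nelfinavir libraries and 0 in the 3 groups with bortezomib, where a count of 0 over 4 libraries allows up to 0.156 CPM with bortezomib alone, 0.153 with nelfinavir added and 0.166 with ISRIB added. CYP3A4 was spread unevenly, with 0, 1 and 3 counts in DMSO, ISRIB and nelfinavir and 5, 10 and 0 in bortezomib alone, with nelfinavir and with ISRIB. These limits cover counting error only, because no source used here mentions molecular identifiers, and none of the 27 was tested.

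With bortezomib, 7 of the 27 tested genes passed the threshold as higher than in DMSO and 9 as lower, at an adjusted p under 0.05 in the quasi-likelihood test of edgeR with Benjamini-Hochberg adjustment over all 12685 genes. That is 59.3% of them, beside 53.4% of all genes tested, of which 27.6% were higher and 25.8% lower. The median log2 fold change of the 27 was -0.17 and that of all genes 0.00, and past 2-fold there were 5 on each side. With nelfinavir alone 6 were higher and 2 lower than in DMSO, 29.6% beside 19.2% of all genes (10.4% higher and 8.84% lower). On adding nelfinavir to bortezomib, 11 were lower and 0 higher, 40.7% beside 28.9% (15.6% higher and 13.4% lower), with a median of -0.38 against -0.02 over all genes. The count of 0 higher stood beside 1 gene higher at an unadjusted p under 0.05, CYP1A1, and 0 higher in DESeq2. On adding ISRIB to bortezomib, 1 was higher and 4 lower, 18.5% beside 12.2% (6.89% higher and 5.34% lower). With ISRIB alone 0 of the 27 were called by edgeR or by DESeq2 and 0 had an unadjusted p under 0.05. Over all genes edgeR likewise called 0 (background 0%), with 702 at an unadjusted p under 0.05, while DESeq2 called 1 higher and 20 lower. The comparisons with DMSO share its 4 libraries, and those with bortezomib share the bortezomib libraries.

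**Figure D1:**
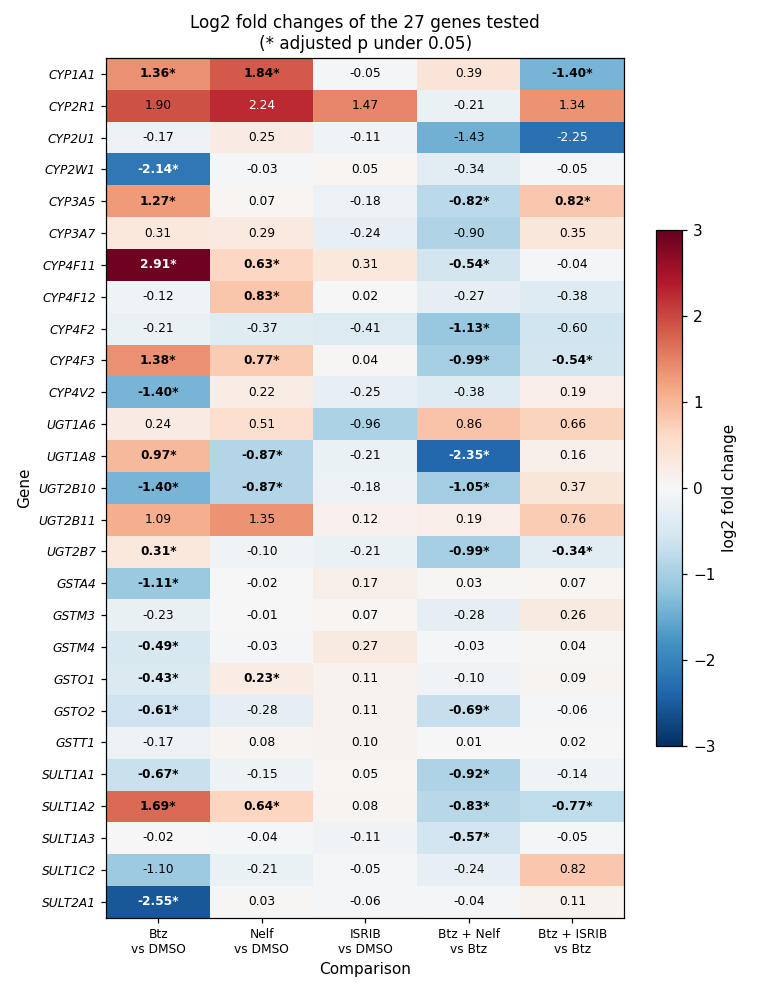
Log2 fold changes of the 27 drug-metabolism genes that passed the expression filter (rows) in 5 comparisons (columns), coloured from -3 (blue) to 3 (red), with a star where edgeR's adjusted p was under 0.05. The bortezomib column holds stars in both directions, 7 higher and 9 lower, and the column for nelfinavir added to bortezomib holds 11 stars, all of them lower.

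CYP1A1 (ENSG00000140465, chr15:75011883-75017877, minus strand of GRCh37) oxidises polycyclic aromatic compounds and is the best known target of the aryl hydrocarbon receptor. It rose with bortezomib and with nelfinavir, and was lower when ISRIB was added to bortezomib. CYP1A1 read 61.2, 80.9, 58.6 and 57.8 CPM in the DMSO libraries, 59.9, 75.9, 49.4 and 64.1 in those with ISRIB and 300, 192, 188 and 247 in those with nelfinavir. With bortezomib, CYP1A1 read 170, 164, 133 and 195 CPM alone, 266, 242, 150 and 207 with nelfinavir added and 48.7, 88.7, 50.1 and 63.9 with ISRIB added. All nelfinavir libraries and all bortezomib libraries lay above all DMSO libraries, and the libraries of bortezomib with ISRIB overlapped those of DMSO and ISRIB. The log2 fold change against DMSO was 1.36 ± 0.18 (SE), edgeR adjusted p = 7.06e-08 for bortezomib, and 1.84 ± 0.17 (SE), edgeR adjusted p = 6.25e-10 for nelfinavir. Adding ISRIB to bortezomib changed it by -1.40 ± 0.18 (SE), edgeR adjusted p = 1.28e-06, and the interaction of ISRIB with bortezomib (the effect of ISRIB on top of bortezomib less its effect on top of DMSO) was -1.34 ± 0.25 (SE), edgeR adjusted p = 8.31e-04. Adding nelfinavir to bortezomib gave 0.39 ± 0.17 (SE), edgeR adjusted p = 0.0884, with overlapping libraries, which does not pass the threshold. That value passed it without bortezomib replicate 4 (0.51), without replicate 3 of bortezomib with nelfinavir (0.55) and without replicate 2 or 3 of bortezomib with ISRIB (0.42 each). It passed too with no expression filter (0.42) and with the replicate numbers as a block in the fit (0.37, edgeR adjusted p = 0.0369). The interaction of nelfinavir with bortezomib was -1.46 ± 0.24 (SE), edgeR adjusted p = 3.85e-05. In order of mean, nelfinavir (232 ± 52.8) and bortezomib with nelfinavir (216 ± 50.5) came first and bortezomib (165 ± 25.4) next, each overlapping its neighbour, and these 3 were set apart from DMSO, bortezomib with ISRIB and ISRIB, which overlapped.

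The promoter of CYP1A1 is shown because its transcript had the widest change with nelfinavir of the genes described in full. Those of CYP4F3 and SULT2A1 are examples of a rise and a fall with bortezomib. CYP4F11 and SULT1A2 rose more than CYP4F3 (2.91 and 1.69, beside 1.38). Each runs from 250 bases before to 50 bases after the start of the GENCODE transcript, read 5′ to 3′ on the gene's strand, at chr15:75017820-75018119, chr19:15751457-15751756 and chr19:48389523-48389822 of GRCh37. Capitals mark matches, on either strand, to the core of the aryl hydrocarbon receptor element GCGTG, the TATA box TATAAA or the antioxidant response element TGACNNNGC.
CYP1A1 promoter: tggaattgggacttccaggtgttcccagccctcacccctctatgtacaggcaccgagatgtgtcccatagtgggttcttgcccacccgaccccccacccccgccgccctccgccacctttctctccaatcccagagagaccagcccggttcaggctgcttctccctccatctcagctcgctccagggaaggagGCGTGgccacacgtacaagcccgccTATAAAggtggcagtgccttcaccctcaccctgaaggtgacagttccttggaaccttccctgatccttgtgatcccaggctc
CYP4F3 promoter: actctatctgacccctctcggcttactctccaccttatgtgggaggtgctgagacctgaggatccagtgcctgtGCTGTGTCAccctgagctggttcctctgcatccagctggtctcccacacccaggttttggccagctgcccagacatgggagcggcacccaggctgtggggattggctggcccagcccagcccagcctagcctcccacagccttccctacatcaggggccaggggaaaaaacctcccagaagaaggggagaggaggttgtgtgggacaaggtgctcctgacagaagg
SULT2A1 promoter: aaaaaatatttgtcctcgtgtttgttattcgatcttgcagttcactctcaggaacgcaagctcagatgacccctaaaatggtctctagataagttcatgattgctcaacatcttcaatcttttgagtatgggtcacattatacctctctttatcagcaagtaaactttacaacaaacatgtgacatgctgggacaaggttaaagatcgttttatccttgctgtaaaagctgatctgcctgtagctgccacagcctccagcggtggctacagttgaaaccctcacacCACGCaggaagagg
In CYP1A1 the receptor core starts at base -57 and the TATA box at -32 from the start site, in CYP4F3 the antioxidant match starts at -176, and in SULT2A1 the receptor core starts at 36. The promoters of CYP4F11 and SULT1A2 held 0 matches to any motif marked. Among the genes called higher with bortezomib, CYP4F3 alone held TGACNNNGC. Among those called lower, UGT2B10, CYP4V2, GSTA4 and GSTO1 held it. Over the 27 tested genes, 8 promoters held GCGTG, beside 51.6% of the 12412 promoters of the same length examined, 8 held TGACNNNGC, beside 15.1%, and 6 held TATAAA, beside 5.83%. The C/EBP-ATF composite TGATGNAA was in 0 of the 27 and in 1.55% of all, and the heat shock element in 0 and in 0.322%. A GCGTG match can share its first bases with the end of a TGACNNNGC match, and a match is a description of the sequence, not of binding.

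Of 8 genes of the aryl hydrocarbon receptor system, 7 were tested, and their counts stand beside 25.8% of all genes lower with bortezomib, 10.4% higher with nelfinavir and, on adding nelfinavir to bortezomib, 15.6% higher and 13.4% lower. With bortezomib 5 were not called and 2 were lower, AHR itself (-1.06 ± 0.15 (SE), edgeR adjusted p = 2.42e-07) and TIPARP, a target that restrains the receptor (-1.02 ± 0.29 (SE), edgeR adjusted p = 0.00359). With nelfinavir 2 were higher, among them the repressor AHRR (1.16 ± 0.38 (SE), edgeR adjusted p = 0.0255). On adding nelfinavir to bortezomib 4 were higher and 1 lower, with TIPARP at 1.06 ± 0.30 (SE), edgeR adjusted p = 0.00738 and the aldehyde dehydrogenase ALDH3A1 at -1.03 ± 0.17 (SE), edgeR adjusted p = 2.51e-05. The median log2 fold change of the 7 was -0.19 with bortezomib, 0.19 with nelfinavir and 0.58 on adding nelfinavir to bortezomib.

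CYP3A5 (ENSG00000106258, chr7:99245817-99277619, minus strand) is the CYP3A enzyme that remains active in part of the adult population and in tissues outside the liver. It rose with bortezomib, and against bortezomib alone it fell on adding nelfinavir and rose on adding ISRIB. CYP3A5 read 4.3, 5.46, 5.18 and 4.78 CPM in the DMSO libraries, 3.66, 5.11, 4.94 and 3.7 in those with ISRIB and 3.7, 4.52, 7.39 and 5.06 in those with nelfinavir. With bortezomib, CYP3A5 read 10.7, 17.6, 11.8 and 7.13 CPM alone, 8.87, 5.9, 4.71 and 7.32 with nelfinavir added and 16, 19.3, 20.4 and 28.4 with ISRIB added. The bortezomib libraries lay above those of DMSO and overlapped those of both co-treatments. All libraries of bortezomib with ISRIB lay above those of bortezomib with nelfinavir. The log2 fold change was 1.27 ± 0.26 (SE), edgeR adjusted p = 9.78e-05 for bortezomib against DMSO, -0.82 ± 0.26 (SE), edgeR adjusted p = 0.0173 on adding nelfinavir, and 0.82 ± 0.24 (SE), edgeR adjusted p = 0.0213 on adding ISRIB. The call on adding nelfinavir was lost without bortezomib replicate 2 (-0.52), without replicate 2 of bortezomib with nelfinavir (-0.73) or without its replicate 3 (-0.66), and in a fit of only the groups compared (edgeR adjusted p = 0.0591). The call on adding ISRIB was lost without bortezomib replicate 1 (0.77) or 4 (0.64), or without replicate 4 of bortezomib with ISRIB (0.64). Its neighbour CYP3A7, the fetal liver form, 25 kb away, lay between 1.18 and 6.90 CPM and was not called in any comparison.

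CYP2W1 (ENSG00000073067, chr7:1022817-1029276, plus strand), a P450 found mainly in fetal gut and in tumours, fell with bortezomib. CYP2W1 read 105, 115, 89.5 and 123 CPM in the DMSO libraries, 129, 86.6, 122 and 112 in those with ISRIB and 74.9, 116, 118 and 115 in those with nelfinavir. With bortezomib, CYP2W1 read 20.3, 23.8, 29.6 and 24.4 CPM alone, 21.1, 15.4, 21.6 and 18.9 with nelfinavir added and 25.8, 18, 27.1 and 23.9 with ISRIB added. Every library with bortezomib lay below every library without it. The log2 fold change with bortezomib was -2.14 ± 0.15 (SE), edgeR adjusted p = 1.52e-13, and the mean went from 108 ± 14.2 to 24.5 ± 3.81 CPM (SD, n = 4). CYP4V2 (ENSG00000145476, chr4:187112721-187134617, plus strand), a fatty acid hydroxylase whose loss causes a retinal dystrophy, also fell. CYP4V2 read 12.7, 14.2, 15.7 and 14.7 CPM in the DMSO libraries, 10.3, 13.2, 11.3 and 13.1 in those with ISRIB and 13.1, 15, 20.4 and 18.2 in those with nelfinavir. With bortezomib, CYP4V2 read 7.27, 5.62, 5.07 and 3.67 CPM alone, 3.17, 2.5, 5.5 and 5.25 with nelfinavir added and 3.78, 8.79, 8 and 3.95 with ISRIB added. Its libraries with bortezomib lay below all those without it, at a log2 fold change of -1.40 ± 0.25 (SE), edgeR adjusted p = 1.50e-05. Neither gene was called in the comparisons with nelfinavir or ISRIB.

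The CYP4F genes lie together on chromosome 19 and oxidise long-chain fatty acids, leukotrienes and vitamins E and K. CYP4F11 (ENSG00000171903, chr19:16023177-16045677, minus strand) had the largest rise with bortezomib among the 27. CYP4F11 read 5.11, 5.33, 5.88 and 3.19 CPM in the DMSO libraries, 6.56, 4.59, 5.65 and 7.27 in those with ISRIB and 7.28, 7.48, 6.75 and 8.56 in those with nelfinavir. With bortezomib, CYP4F11 read 38.7, 37.4, 37 and 33.9 CPM alone, 27.5, 24.7, 21.8 and 27.4 with nelfinavir added and 38.3, 29.3, 34.7 and 41.2 with ISRIB added. The groups with and without bortezomib did not overlap, and the libraries with nelfinavir added lay below those of bortezomib alone. The log2 fold change was 2.91 ± 0.17 (SE), edgeR adjusted p = 8.86e-16 for bortezomib, 0.63 ± 0.18 (SE), edgeR adjusted p = 0.0136 for nelfinavir and -0.54 ± 0.15 (SE), edgeR adjusted p = 0.0081 on adding nelfinavir to bortezomib. The call for nelfinavir alone was lost without DMSO replicate 4 (0.47) or without nelfinavir replicate 4 (0.56). The interaction of nelfinavir with bortezomib was -1.16 ± 0.24 (SE), edgeR adjusted p = 5.95e-04.

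CYP4F3 (ENSG00000186529, chr19:15751707-15773635, plus strand), which inactivates leukotriene B4, rose with bortezomib and with nelfinavir, each given alone. CYP4F3 read 20, 24.2, 20.3 and 21.6 CPM in the DMSO libraries, 29.9, 17.2, 20.2 and 20.8 in those with ISRIB and 32.4, 34.7, 36.8 and 42.7 in those with nelfinavir. With bortezomib, CYP4F3 read 54.1, 56.8, 58.9 and 54.6 CPM alone, 22.4, 34, 28.9 and 27.8 with nelfinavir added and 29.6, 39.1, 44.8 and 41.2 with ISRIB added. All bortezomib libraries lay above those of the other 5 groups. On the log2 scale it stood at 1.38 ± 0.15 (SE), edgeR adjusted p = 1.39e-09 for bortezomib and 0.77 ± 0.15 (SE), edgeR adjusted p = 1.95e-04 for nelfinavir, but -0.99 ± 0.15 (SE), edgeR adjusted p = 5.34e-06 when nelfinavir was added to bortezomib, and the interaction was -1.76 ± 0.21 (SE), edgeR adjusted p = 1.32e-07. Adding ISRIB to bortezomib gave -0.54 ± 0.15 (SE), edgeR adjusted p = 0.013, a call that was lost without replicate 1 of bortezomib with ISRIB (-0.43).

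CYP4F12 (ENSG00000186204, chr19:15783828-15807984, plus strand), 10.2 kb downstream of CYP4F3 on the same strand, rose with nelfinavir and was not called with bortezomib. CYP4F12 read 13.2, 12.6, 13.1 and 12 CPM in the DMSO libraries, 14.9, 11.3, 15.2 and 10.3 in those with ISRIB and 21.4, 20.3, 25.2 and 23.9 in those with nelfinavir. With bortezomib, CYP4F12 read 7.91, 13, 13.7 and 12.1 CPM alone, 10.6, 11.1, 5.69 and 11.4 with nelfinavir added and 8.46, 7.95, 11.6 and 7.89 with ISRIB added. The nelfinavir libraries lay above those of DMSO and above those of all groups with bortezomib. The log2 fold change was 0.83 ± 0.18 (SE), edgeR adjusted p = 9.59e-04 for nelfinavir, and the interaction of nelfinavir with bortezomib was -1.10 ± 0.28 (SE), edgeR adjusted p = 0.0044. CYP4F2 (ENSG00000186115, chr19:15988833-16008887, minus strand), the vitamin K hydroxylase, lies 14.3 kb from CYP4F11 on the same strand. CYP4F2 read 11.8, 7.54, 12 and 13.4 CPM in the DMSO libraries, 8.82, 8.92, 8.75 and 7.15 in those with ISRIB and 8.36, 8.9, 7.14 and 10.3 in those with nelfinavir. With bortezomib, CYP4F2 read 7.48, 8.92, 9.92 and 12.3 CPM alone, 3.38, 6.13, 3.53 and 4.69 with nelfinavir added and 6.9, 8.37, 3.37 and 6.91 with ISRIB added. The libraries of bortezomib with nelfinavir lay below those of DMSO, ISRIB, nelfinavir and bortezomib, and adding nelfinavir to bortezomib changed CYP4F2 by -1.13 ± 0.26 (SE), edgeR adjusted p = 0.00145. With bortezomib alone CYP4F2 was at -0.21 ± 0.23 (SE), edgeR adjusted p = 0.455, so of these 4 neighbours 2 rose with bortezomib and 2 were not called. With library totals as the only scaling, CYP4F12 (-0.62) and CYP4F2 (-0.72) were called lower with bortezomib.

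**Figure D2:**
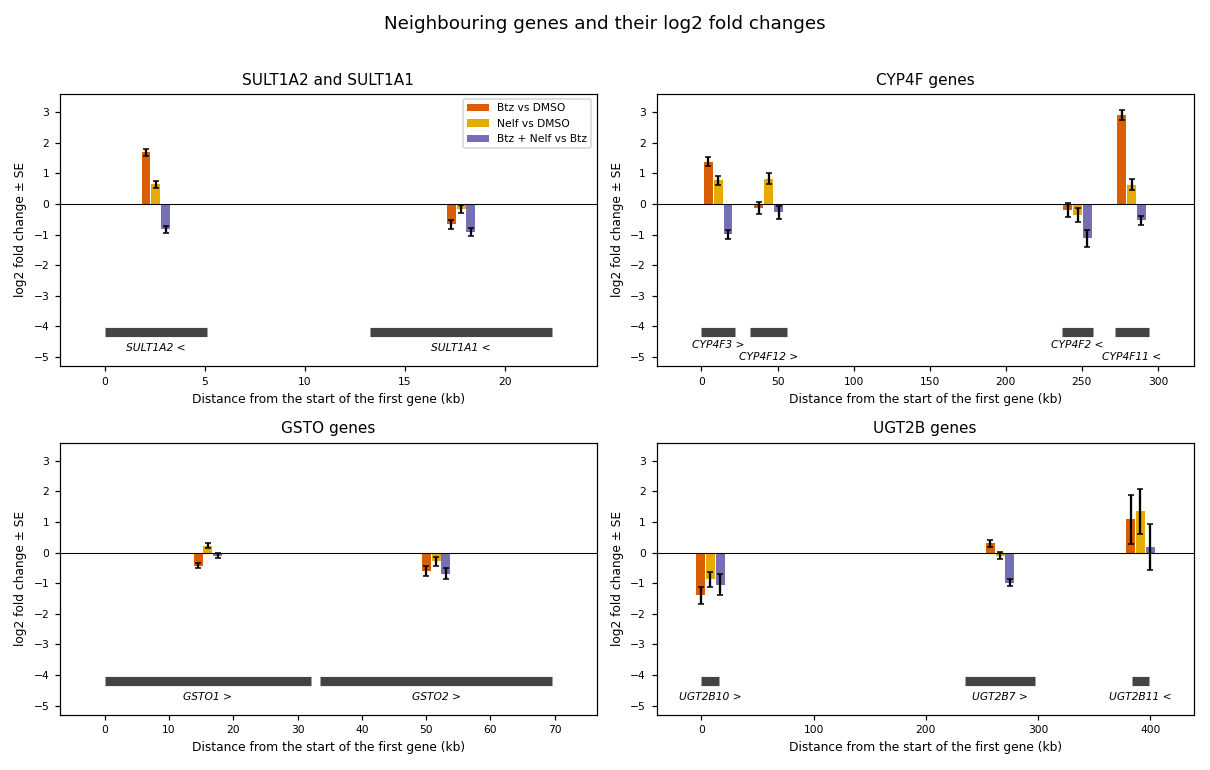
Log2 fold changes (bars, with SE) of neighbouring drug-metabolism genes for bortezomib against DMSO, nelfinavir against DMSO and nelfinavir added to bortezomib, drawn above each gene's extent (grey; arrows give the strand) against the distance from the first gene in kb. The rows of SULT1A2 and SULT1A1 stand on opposite sides of 0 with bortezomib, but the split of reads between these copies is uncertain. The 4 SULT1A rows summed gave 0.20. Within the CYP4F genes the bars of CYP4F11 and CYP4F3 reach 2.91 and 1.38 while those of CYP4F12 and CYP4F2 stay at -0.12 and -0.21.

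The UGT1A genes share their last exons and so their 3′ end. The row that the table names UGT1A8 carries the identifier ENSG00000241635, which GENCODE gives to UGT1A1 (chr2:234668916-234681946, plus strand), the enzyme that conjugates bilirubin. All of the last 500 bases of this model are identical in 8 other UGT1A genes, so 3′ reads cannot assign the signal to 1 of them, and the row is called the UGT1A8 row here. It rose with bortezomib, fell with nelfinavir, and was lowest with both. The UGT1A8 row read 22.4, 18.9, 19.4 and 18.5 CPM in the DMSO libraries, 17.3, 17.4, 17.2 and 16.6 in those with ISRIB and 11.7, 12.5, 9.34 and 9.73 in those with nelfinavir. With bortezomib, the UGT1A8 row read 41.9, 42.8, 32.7 and 37.4 CPM alone, 7.82, 7.72, 7.07 and 7.69 with nelfinavir added and 40.3, 49.6, 37 and 45.9 with ISRIB added. The libraries of bortezomib with nelfinavir lay below all other libraries, and those of bortezomib alone and with ISRIB lay above all libraries of the other 4 groups. Its log2 fold change was 0.97 ± 0.13 (SE), edgeR adjusted p = 1.41e-07 for bortezomib, -0.87 ± 0.14 (SE), edgeR adjusted p = 1.13e-05 for nelfinavir and -2.35 ± 0.15 (SE), edgeR adjusted p = 9.56e-14 on adding nelfinavir to bortezomib. The interaction of nelfinavir with bortezomib was -1.48 ± 0.20 (SE), edgeR adjusted p = 1.90e-06. The 4 UGT1A rows summed gave 0.95, -0.80 and -2.15 in the same 3 comparisons, and an interaction of -1.35.

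UGT2B7 (ENSG00000171234, chr4:69917081-69978705, plus strand) conjugates morphine, steroids and other drugs. UGT2B7 read 54.8, 50, 51.8 and 58.8 CPM in the DMSO libraries, 46, 44.7, 46.4 and 49.4 in those with ISRIB and 48.1, 51.1, 51.8 and 50.1 in those with nelfinavir. With bortezomib, UGT2B7 read 66.7, 78.7, 64.4 and 57.2 CPM alone, 33.2, 27.5, 32.2 and 40.9 with nelfinavir added and 55.2, 54.6, 44.4 and 57 with ISRIB added. The libraries of bortezomib with nelfinavir lay below those of all other groups. Adding nelfinavir to bortezomib changed it by -0.99 ± 0.12 (SE), edgeR adjusted p = 6.69e-08, while nelfinavir alone gave -0.10 ± 0.11 (SE), edgeR adjusted p = 0.613, and the interaction was -0.89 ± 0.16 (SE), edgeR adjusted p = 1.08e-04. Bortezomib against DMSO gave 0.31 ± 0.11 (SE), edgeR adjusted p = 0.0185, a call lost in 9 of the 24 fits that left out 1 library, with values of 0.16 (without bortezomib replicate 2) to 0.28, and also with upper-quartile factors (0.23) and with no filter (0.24). Its sign turned with library totals as the only scaling (-0.19). The 9 libraries were DMSO replicate 2, bortezomib replicates 1, 2 and 3, replicates 1 and 3 of bortezomib with nelfinavir, and replicates 1, 2 and 4 of bortezomib with ISRIB. The change on adding ISRIB to bortezomib (-0.34 ± 0.11 (SE), edgeR adjusted p = 0.045) was lost in 17 of the 24, with values of -0.37 to -0.25; it remained called only without ISRIB replicate 3, bortezomib replicate 4, replicate 4 of bortezomib with ISRIB, or any library of bortezomib with nelfinavir. It was lost too with no filter (-0.35) and in a fit of only the groups compared (-0.34).

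UGT2B10 (ENSG00000109181, chr4:69681712-69697741, plus strand), which attaches glucuronic acid to the nitrogen of nicotine and of tertiary amines, fell with bortezomib and with nelfinavir. UGT2B10 read 11.2, 13.8, 13.7 and 14.1 CPM in the DMSO libraries, 12, 13.5, 8.47 and 12.4 in those with ISRIB and 5.97, 9.93, 6.88 and 5.97 in those with nelfinavir. With bortezomib, UGT2B10 read 5.99, 3.3, 2.96 and 7.78 CPM alone, 3.59, 1.59, 1.57 and 2.81 with nelfinavir added and 7.57, 7.95, 3.79 and 6.41 with ISRIB added. The DMSO libraries lay above those of nelfinavir and of all groups with bortezomib. The log2 fold change was -1.40 ± 0.27 (SE), edgeR adjusted p = 5.95e-05 for bortezomib, -0.87 ± 0.25 (SE), edgeR adjusted p = 0.0113 for nelfinavir and -1.05 ± 0.34 (SE), edgeR adjusted p = 0.0204 on adding nelfinavir to bortezomib. The last call was lost without bortezomib replicate 1 (-0.91) or 4 (-0.72), and without replicate 2 or 3 of bortezomib with nelfinavir (-0.86 each), and in a fit of only the groups compared (edgeR adjusted p = 0.112). UGT2B10 and UGT2B7 lie 219.3 kb apart on chromosome 4.

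**Figure D3:**
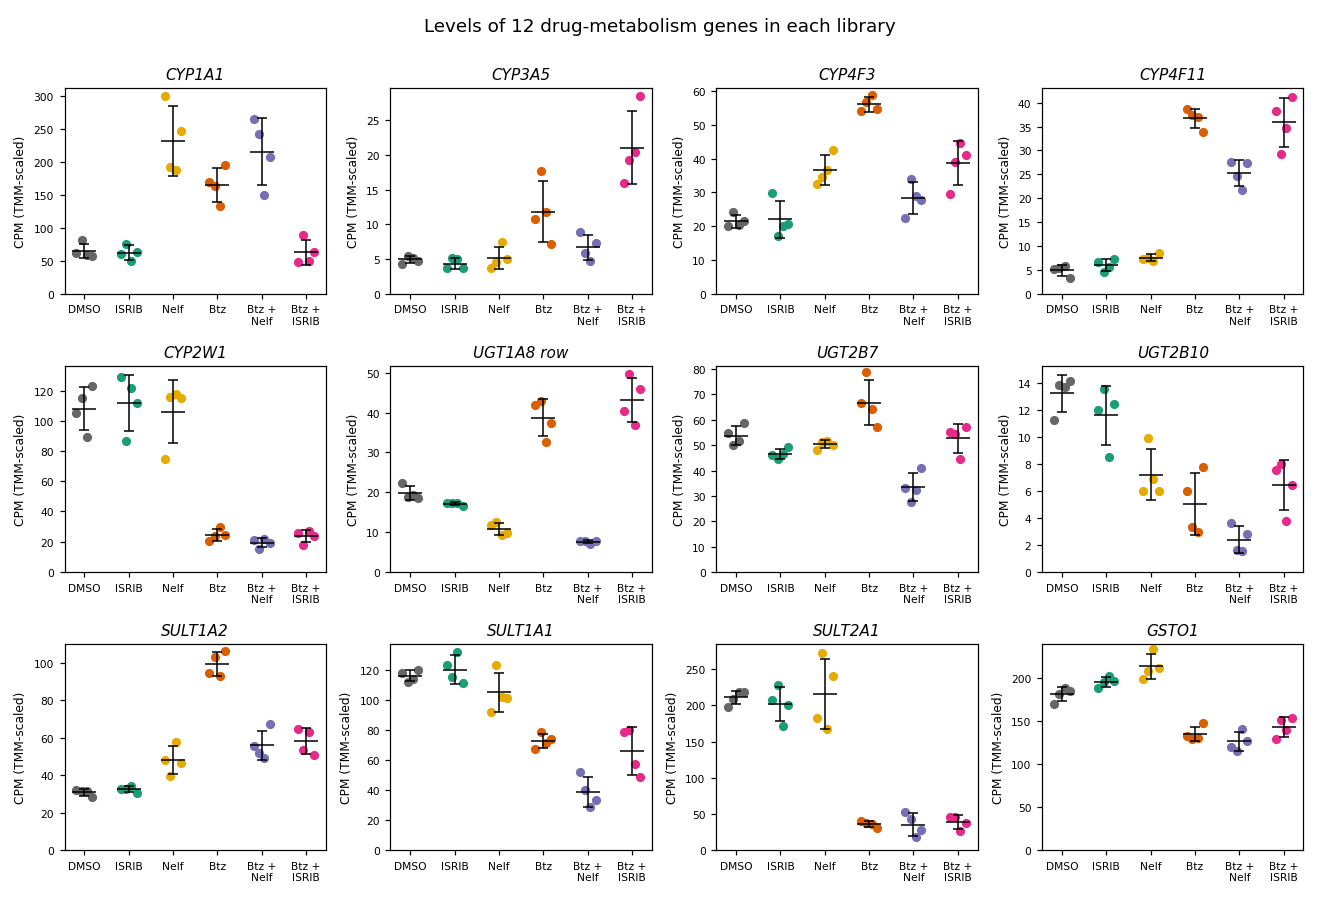
CPM of 12 drug-metabolism genes in each library (points, replicates 1 to 4 from left to right) for the 6 conditions, with the mean and SD of 4 libraries in black and axes starting at 0. CYP1A1 is high in nelfinavir, bortezomib and bortezomib with nelfinavir and low in the other 3 groups, the UGT1A8 row is lowest in bortezomib with nelfinavir, and CYP2W1 and SULT2A1 are low in every group with bortezomib.

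The glutathione S-transferases couple electrophiles to glutathione. Of the 6 tested, 4 fell with bortezomib and the other 2, GSTM3 (10.8 to 23.4 CPM) and GSTT1 (40.9 to 67.2 CPM), were not called in any comparison, beside 25.8% of all genes lower. Without bortezomib replicate 4, GSTT1 passed the threshold as lower with bortezomib (-0.29). With library totals as the only scaling, which moved the median of all genes by -0.50, both were called lower with bortezomib, GSTM3 at -0.73 and GSTT1 at -0.67. GSTO1 (ENSG00000148834, chr10:105995114-106027217, plus strand) is an omega class enzyme with thioltransferase activity and fell with bortezomib. GSTO1 read 170, 181, 188 and 185 CPM in the DMSO libraries, 188, 195, 202 and 196 in those with ISRIB and 199, 208, 233 and 211 in those with nelfinavir. With bortezomib, GSTO1 read 132, 129, 130 and 147 CPM alone, 120, 115, 141 and 126 with nelfinavir added and 129, 151, 139 and 153 with ISRIB added. All libraries with bortezomib lay below all libraries without it, at -0.43 ± 0.08 (SE), edgeR adjusted p = 4.04e-05. Nelfinavir alone gave 0.23 ± 0.08 (SE), edgeR adjusted p = 0.0355, a call lost with no filter (edgeR adjusted p = 0.162) and under all 3 other scalings, at 0.0579 with RLE factors, 0.0711 with upper-quartile factors and 0.0668 with library totals alone. It was also lost in 15 of the 24 fits that left out 1 library, with values of 0.19 to 0.24. Only leaving out DMSO replicate 3, nelfinavir replicate 1 or 2, any ISRIB library, or replicate 2 or 3 of bortezomib with nelfinavir kept it. The interaction of nelfinavir with bortezomib (-0.33 ± 0.12 (SE), edgeR adjusted p = 0.0393) was lost in 16, with values of -0.34 to -0.23, the same libraries and replicate 2 of bortezomib with nelfinavir, and with RLE factors (-0.31), no filter (-0.27) and a fit of only the groups compared (-0.30).

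GSTO2 (ENSG00000065621, chr10:106028631-106064708, plus strand) starts 1.4 kb beyond GSTO1 and reduces dehydroascorbate. GSTO2 read 18.4, 17.8, 19.9 and 18.7 CPM in the DMSO libraries, 20.9, 20.9, 21 and 17.7 in those with ISRIB and 14.4, 15, 17.5 and 14.7 in those with nelfinavir. With bortezomib, GSTO2 read 14.1, 11.8, 12.7 and 10.4 CPM alone, 8.87, 7.49, 6.87 and 7.13 with nelfinavir added and 9.12, 10.5, 16.4 and 10.9 with ISRIB added. The libraries of bortezomib with nelfinavir lay below those of bortezomib alone. It changed by -0.61 ± 0.16 (SE), edgeR adjusted p = 0.00189 with bortezomib and by -0.69 ± 0.18 (SE), edgeR adjusted p = 0.0043 on adding nelfinavir to bortezomib. GSTA4 (ENSG00000170899, chr6:52842746-52860102, minus strand) removes the lipid peroxidation product 4-hydroxynonenal. GSTA4 read 11.4, 12.7, 13.8 and 12.6 CPM in the DMSO libraries, 14, 14, 12.6 and 16.1 in those with ISRIB and 11.8, 13.8, 14 and 10.3 in those with nelfinavir. With bortezomib, GSTA4 read 7.27, 4.46, 5.49 and 6.26 CPM alone, 5.49, 6.81, 9.03 and 2.63 with nelfinavir added and 6.45, 6.07, 3.79 and 8.39 with ISRIB added. Every library with bortezomib lay below every library without it, at -1.11 ± 0.24 (SE), edgeR adjusted p = 2.57e-04. GSTM4 (ENSG00000168765, chr1:110198721-110208118, plus strand) belongs to the mu class. GSTM4 read 26.9, 28.4, 31.9 and 27.1 CPM in the DMSO libraries, 35, 30.3, 42.3 and 30.6 in those with ISRIB and 26.1, 28.4, 30.2 and 27.2 in those with nelfinavir. With bortezomib, GSTM4 read 14.5, 22.1, 21.1 and 23.3 CPM alone, 18, 23.8, 18.3 and 19.7 with nelfinavir added and 19.6, 26.8, 17.3 and 19.7 with ISRIB added. The libraries of DMSO lay above those of all groups with bortezomib, at -0.49 ± 0.15 (SE), edgeR adjusted p = 0.00667 for bortezomib alone.

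Sulfotransferases transfer sulfate from PAPS. SULT2A1 (ENSG00000105398, chr19:48373724-48389572, minus strand), which sulfates DHEA and bile acids, had the largest fall with bortezomib of the 27. SULT2A1 read 198, 209, 218 and 218 CPM in the DMSO libraries, 207, 228, 172 and 201 in those with ISRIB and 182, 272, 168 and 241 in those with nelfinavir. With bortezomib, SULT2A1 read 40, 37.8, 35.5 and 30.2 CPM alone, 52.4, 43.3, 17.5 and 27.6 with nelfinavir added and 45.4, 45.8, 26.1 and 37.5 with ISRIB added. All libraries with bortezomib lay below all libraries without it. The fitted log2 change was -2.55 ± 0.20 (SE), edgeR adjusted p = 6.94e-13, from 211 ± 9.44 to 35.9 ± 4.18 CPM (SD, n = 4), and neither nelfinavir nor ISRIB gave a call with or without bortezomib.

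SULT1A1 (ENSG00000196502, chr16:28616517-28625600, minus strand) and SULT1A2 (ENSG00000197165, chr16:28603264-28608371, minus strand) sulfate small phenols and lie 8.1 kb apart on the same strand. Their coding ends are shown because the rows moved in opposite directions with bortezomib and the copies are alike at the end of their coding sequences. The lines give the last 120 coding bases before the stop codon, 5′ to 3′, from GRCh37, with a base that differs from SULT1A1 in capitals.
SULT1A1 coding end: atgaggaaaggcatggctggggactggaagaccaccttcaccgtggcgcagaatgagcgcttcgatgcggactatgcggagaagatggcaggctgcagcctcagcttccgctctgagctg
SULT1A2 coding end: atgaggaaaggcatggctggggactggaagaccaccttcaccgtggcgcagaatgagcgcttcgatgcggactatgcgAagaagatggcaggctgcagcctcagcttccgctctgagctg
SULT1A3 coding end: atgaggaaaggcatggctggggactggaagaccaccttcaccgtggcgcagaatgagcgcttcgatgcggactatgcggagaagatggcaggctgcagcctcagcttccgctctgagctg
SULT1A2 differs from SULT1A1 at 1 of these 120 bases and at 28 of 885 coding bases, and SULT1A3 at 0 and 49. Over 493 of the last 500 bases of its transcript, untranslated bases included, SULT1A2 was 96.1% identical to a stretch of SULT1A1. For the last 500 bases of the SULT1A1 transcript, no alignment of at least 80 bases to SULT1A2 or SULT1A3 was found. SULT1A1 fell with bortezomib. SULT1A1 read 118, 112, 114 and 120 CPM in the DMSO libraries, 123, 115, 132 and 111 in those with ISRIB and 92.2, 123, 102 and 101 in those with nelfinavir. With bortezomib, SULT1A1 read 67.1, 78.5, 71.4 and 73.9 CPM alone, 51.8, 40.2, 28.9 and 33.2 with nelfinavir added and 78.5, 80, 57 and 48.6 with ISRIB added. The bortezomib libraries lay below all those without bortezomib, and those with nelfinavir added lay lower again. On a log2 scale that was -0.67 ± 0.13 (SE), edgeR adjusted p = 7.13e-05 for bortezomib and -0.92 ± 0.14 (SE), edgeR adjusted p = 8.35e-06 on adding nelfinavir, with an interaction of -0.77 ± 0.19 (SE), edgeR adjusted p = 0.00414.

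SULT1A2 rose with bortezomib and with nelfinavir. SULT1A2 read 31.9, 31.7, 31.5 and 28.2 CPM in the DMSO libraries, 32.8, 32.4, 34.4 and 30.4 in those with ISRIB and 47.9, 39.7, 57.6 and 46.5 in those with nelfinavir. With bortezomib, SULT1A2 read 94.5, 103, 92.9 and 106 CPM alone, 55.6, 51.7, 48.9 and 67 with nelfinavir added and 64.8, 53.6, 62.9 and 50.8 with ISRIB added. The bortezomib libraries lay above those of every other group. Its change on the log2 scale was 1.69 ± 0.12 (SE), edgeR adjusted p = 4.14e-14 for bortezomib and 0.64 ± 0.12 (SE), edgeR adjusted p = 9.68e-05 for nelfinavir. On adding nelfinavir to bortezomib it was -0.83 ± 0.11 (SE), edgeR adjusted p = 1.09e-06, and on adding ISRIB -0.77 ± 0.11 (SE), edgeR adjusted p = 1.08e-05. The interaction was -1.47 ± 0.16 (SE), edgeR adjusted p = 2.86e-08 for nelfinavir and -0.85 ± 0.16 (SE), edgeR adjusted p = 0.00108 for ISRIB. SULT1A3 (ENSG00000261052, chr16:30210549-30215631, plus strand), the dopamine sulfotransferase, is 99.6% identical to SULT1A4 over 498 of its last bases. SULT1A3 read 26, 18.6, 12 and 16.9 CPM in the DMSO libraries, 18.2, 17, 16.7 and 16.5 in those with ISRIB and 22.7, 18.7, 15.8 and 14.3 in those with nelfinavir. With bortezomib, SULT1A3 read 18.8, 16.5, 21.5 and 16 CPM alone, 12, 12.7, 10.4 and 13.9 with nelfinavir added and 17.4, 21.1, 17.7 and 13.8 with ISRIB added. With all libraries and TMM scaling, SULT1A3 was called only on adding nelfinavir to bortezomib (-0.57 ± 0.20 (SE), edgeR adjusted p = 0.0289). That call was lost without bortezomib replicate 1 (-0.52) or 3 (-0.44) and without replicate 1 (-0.51), 2 (-0.54) or 3 (-0.47) of bortezomib with nelfinavir. It was lost too in a fit of only the groups compared (edgeR adjusted p = 0.0525). Library totals as the only scaling gave a call lower with bortezomib (-0.52). Without DMSO replicate 1, the interaction of nelfinavir with bortezomib was called (-0.74). With the 4 SULT1A rows summed, the change with bortezomib was 0.20 (edgeR adjusted p = 0.0718), on the other side of 0 from SULT1A1, and with nelfinavir 0.04 (edgeR adjusted p = 0.824). With nelfinavir on top of bortezomib the sum changed by -0.84. The sources used here do not say how reads were assigned between the copies, and the split between SULT1A1 and SULT1A2 is uncertain.

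The interaction of nelfinavir with bortezomib was called lower for 9 of the 27 genes and higher for 0, beside 19.7% of all genes called, 10% lower and 9.74% higher. The count of 0 higher was also 0 at an unadjusted p under 0.05 and in DESeq2. The 9 were CYP1A1, CYP4F3, CYP4F11, CYP4F12, the UGT1A8 row, UGT2B7, GSTO1, SULT1A1 and SULT1A2. Of these, CYP4F3, CYP4F11 and SULT1A2 were called higher with nelfinavir alone and lower when nelfinavir was added to bortezomib. The median interaction of the 27 was -0.76, beside -0.02 over all genes. The interaction of ISRIB with bortezomib was called lower for 2 genes, CYP1A1 and SULT1A2, and higher for 0, beside 4.82% of all genes, 1.89% lower and 2.92% higher. At an unadjusted p under 0.05 the counts were 3 lower and 1 higher, and DESeq2 called 2 lower and 0 higher.

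**Figure D4:**
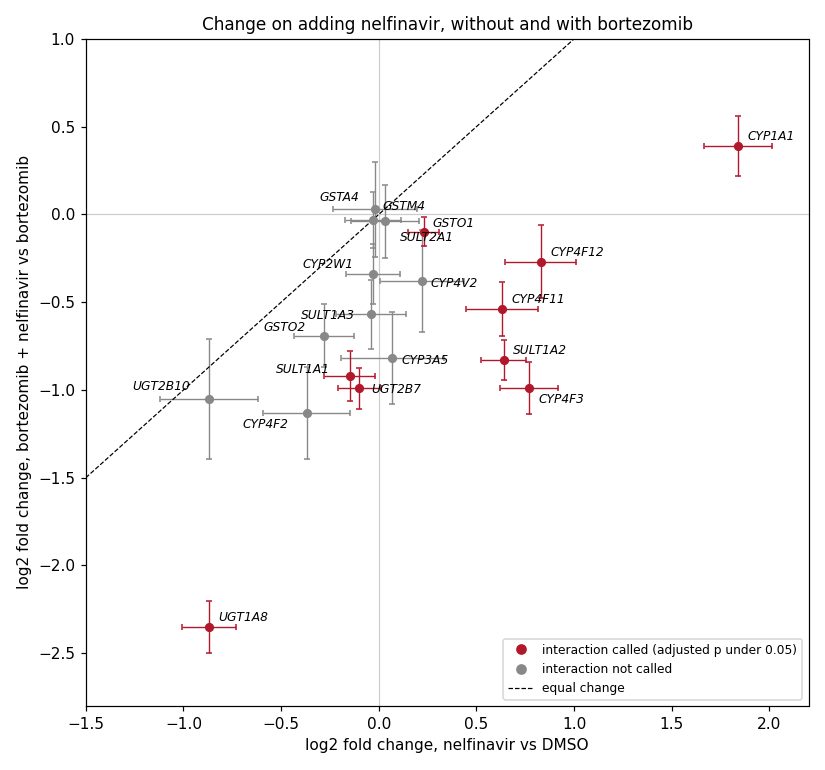
Log2 fold change of the 19 genes described in full for nelfinavir against DMSO (horizontal axis) and for nelfinavir added to bortezomib (vertical axis), with SE bars and a dashed line of equal change; red points have a called interaction. The 9 red points lie below the line, with CYP4F3 at 0.77 and -0.99 and CYP1A1 at 1.84 and 0.39.

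Summed over the 27 tested genes, the families differed in their order over the groups. P450 genes came to 246 ± 20.3 CPM in DMSO, 440 ± 35.8 in nelfinavir and 326 ± 17.6 in bortezomib, and to 317 ± 52.7 and 209 ± 17.7 when nelfinavir or ISRIB was added to it (SD, n = 4). UGT genes came to 87.8 ± 4.62 in DMSO, 112 ± 11.8 in bortezomib and 45.8 ± 7.69 in bortezomib with nelfinavir, and the last lay below all other groups. SULT genes came to 377 ± 5.43 in DMSO, 226 ± 7.01 in bortezomib and 142 ± 27.2 in bortezomib with nelfinavir. GST genes came to 317 ± 8.60 in DMSO and 240 ± 16.9 in bortezomib. Single genes with high counts carried much of some sums. The mean of CYP1A1 alone was 64.6 CPM in DMSO, 232 in nelfinavir, 165 in bortezomib and 62.9 in bortezomib with ISRIB. That of SULT2A1 was 211 CPM in DMSO and 35.9 in bortezomib. With library totals as the only scaling, the order of bortezomib and DMSO turned for the P450 genes (279 ± 15.2 and 298 ± 22.2 CPM) and the UGT genes (95.9 ± 11.2 and 106 ± 6.68 CPM). All 27 together came to 1030 ± 18.6 CPM in DMSO, 1040 ± 19.6 in ISRIB, 1240 ± 43.3 in nelfinavir, 905 ± 30.6 under bortezomib alone, 728 ± 67.5 with nelfinavir added and 748 ± 40.3 with ISRIB added. The bortezomib libraries lay below the DMSO libraries in this total and above those of both co-treatments.

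The genes around these enzymes were counted from lists, whose counts stand beside the shares of all genes tested: 27.6% higher and 25.8% lower with bortezomib, 10.4% and 8.84% with nelfinavir alone, and 15.6% and 13.4% on adding nelfinavir to bortezomib. The medians over all genes in these comparisons were 0.00, 0.01 and -0.02. Of 13 tested nuclear receptors and liver transcription factors, 1 rose and 10 fell with bortezomib, at a median of -0.97. The repressor NR0B2 (SHP) rose (2.52 ± 0.08 (SE), edgeR adjusted p = 2.38e-22), and FOXA2 (-1.36 ± 0.10 (SE), edgeR adjusted p = 3.74e-13), CEBPA (-1.19 ± 0.11 (SE), edgeR adjusted p = 2.62e-11) and the bile acid receptor NR1H4 (FXR; -1.04 ± 0.14 (SE), edgeR adjusted p = 1.22e-07) fell. With nelfinavir 6 of the 13 rose and 1 fell, at a median of 0.23. Of 17 electron donors and heme synthesis genes, 4 rose and 8 fell with bortezomib (27.6% and 25.8% of all genes), at a median of -0.27. POR, the electron donor of the microsomal P450 enzymes, rose (1.61 ± 0.08 (SE), edgeR adjusted p = 2.42e-17), as did CYB5R1 (1.86 ± 0.12 (SE), edgeR adjusted p = 1.39e-14), while the heme synthesis enzyme ALAD fell (-1.64 ± 0.20 (SE), edgeR adjusted p = 2.74e-08).

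Of 12 genes listed for the supply or transport of the cosubstrates, 4 rose and 6 fell with bortezomib, beside 27.6% and 25.8% of all genes, at a median of -0.41. GCLM (2.61 ± 0.14 (SE), edgeR adjusted p = 5.40e-17) and GCLC (1.53 ± 0.12 (SE), edgeR adjusted p = 2.05e-12), the subunits of the enzyme that limits glutathione synthesis, and the glutathione reductase GSR (1.37 ± 0.14 (SE), edgeR adjusted p = 6.87e-10) rose. PAPSS1, which makes the sulfate donor PAPS, fell (-1.04 ± 0.15 (SE), edgeR adjusted p = 8.72e-07), as did SLC35B2, which carries PAPS into the Golgi (-1.30 ± 0.33 (SE), edgeR adjusted p = 0.00103). When nelfinavir joined bortezomib, 4 of the 12 rose and 1 fell, beside 15.6% and 13.4% of all genes, at a median of -0.03.

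Of 29 other metabolising enzymes, 5 rose and 10 fell with bortezomib, beside 27.6% and 25.8% of all genes, at a median of -0.15. The aldo-keto reductases AKR1C1 (2.53 ± 0.11 (SE), edgeR adjusted p = 1.65e-19) and AKR1C2 (2.22 ± 0.12 (SE), edgeR adjusted p = 2.06e-16) rose, and the microsomal transferase MGST2 (-2.16 ± 0.12 (SE), edgeR adjusted p = 8.21e-17), the alcohol dehydrogenase ADH6 (-2.04 ± 0.23 (SE), edgeR adjusted p = 5.38e-09) and the mitochondrial or peroxisomal transferase GSTK1 (-1.18 ± 0.13 (SE), edgeR adjusted p = 2.29e-09) fell. With nelfinavir and bortezomib against bortezomib, 2 of the 29 rose and 13 fell, beside 15.6% and 13.4% of all genes, at a median of -0.32. Of 18 transporters, 7 rose and 5 fell with bortezomib, beside the same 27.6% and 25.8%, at a median of 0.31. The exporters ABCC2 (1.60 ± 0.09 (SE), edgeR adjusted p = 6.24e-16), ABCC5 (1.26 ± 0.14 (SE), edgeR adjusted p = 1.54e-09) and ABCB1 (1.04 ± 0.11 (SE), edgeR adjusted p = 7.69e-10) rose, and the uptake carriers SLC22A7 (-2.48 ± 0.26 (SE), edgeR adjusted p = 1.00e-09) and SLCO2B1 (-1.78 ± 0.17 (SE), edgeR adjusted p = 2.47e-10) fell. On adding nelfinavir 1 rose and 7 fell, beside 15.6% and 13.4%, at a median of -0.42. Among 10 P450 genes of other families, 1 rose and 2 fell with bortezomib, at a median of -0.11. The genes that fell were CYP7A1, the rate-limiting enzyme of bile acid synthesis (-2.57 ± 0.43 (SE), edgeR adjusted p = 7.11e-06), and CYP8B1, which sets the share of cholic acid (-2.25 ± 0.61 (SE), edgeR adjusted p = 0.00228).

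The remaining tested genes were low and not called in any of the 7 comparisons with all libraries in the fit. CYP2R1, a vitamin D 25-hydroxylase, CYP2U1, SULT1C2, UGT1A6 and UGT2B11 lay between 0 and 2.78 CPM, with 0 in at least 1 library each. At these counts a few reads set each value. With 1 library left out, CYP2U1 passed the threshold on adding ISRIB to bortezomib without bortezomib replicate 1 (-2.65) and on adding nelfinavir without replicate 3 of bortezomib with nelfinavir (-2.84), and UGT2B11 passed it with bortezomib without DMSO replicate 4 (2.24).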

How the data were processed

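RNA from 24 HepG2 cultures was made into 3′ RNA-Seq libraries (QuantSeq FWD) from 250 ng of total RNA each and read as 80 bp single-end reads. Per the labels and the paper's methods, the authors trimmed the reads with cutadapt 2.8 and then ran the nf-core RNA-Seq pipeline, in which STAR placed the reads on hg19. Reads were counted on Ensembl genes of GRCh37 in the protein-coding, lincRNA and antisense classes. The counting program, its strandedness and any use of molecular identifiers were not given there. As deposited, the values are whole-number counts per gene, not normalized, for 18915 genes, with totals of 5154533 to 6943164 per library.

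The counts were analysed in R 4.3.3 with edgeR 4.0.16. The filter filterByExpr was set to a minimum count of 5 and a minimum total of 25, and all 24 libraries were scaled by TMM and entered 1 quasi-likelihood model with a coefficient per condition. Adjusted p-values are Benjamini-Hochberg values over 12685 genes, and a gene was called under 0.05. The SE beside a log2 fold change was worked back from the test, as the size of the change divided by the square root of its quasi-likelihood F statistic. Errors beside CPM are SDs over 4 libraries. The scripts were tested on simulated data for bortezomib against DMSO. Of 200 genes changed 1.5-fold 63 were recovered, and of 200 changed 2-fold 143, with 2 and 5 false calls. In each simulation only those 200 genes changed, as many raised as lowered, whereas 53.4% of all genes were called with bortezomib in the data. These rates therefore need not hold for the data. A gene that was not called is still not shown to be unchanged.

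The genes and lists were chosen with earlier results of these data known, so no test over a list was made. Genes with a mean of at least 5 CPM that were called in any of the 7 comparisons are described in full, the others by range and count, and genes of the lists are named where called with a change over 2-fold, at most 3 in each direction. Gene models, shared bases and promoters came from GENCODE release 44 on GRCh37, which hold a model for 53 of the 54 genes, 52 of them under the symbol of the table. Copies were sought by aligning the last 500 bases of the transcripts with BLAST 2.17.0. Alternatives were other scalings, DESeq2 1.42.0, other filters, a fit of only the groups compared, a replicate block, summed near copies, each library left out in turn and, chosen after seeing the data, the removal of mitochondrially encoded genes. Protein sequences were not used here.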

Additional observations from a re-analysis of the deposited data

Results flagged for a closer look

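In 10 of the 114 groups of 4 libraries examined, 19 genes in 6 conditions, 1 library stood far from the other 3, and chance alone marks about 1 group in 20. CYP2W1 read 74.9 CPM in nelfinavir replicate 1, beside 115 to 118 in the others, and CYP1A1 80.9 in DMSO replicate 2, beside 57.8 to 61.2. CYP4F12 read 5.69 in replicate 3 of bortezomib with nelfinavir, beside 10.6 to 11.4, and 11.6 in replicate 3 of bortezomib with ISRIB, beside 7.89 to 8.46. GSTO2 read 17.7 in ISRIB replicate 4, beside 20.9 to 21, and 17.5 in nelfinavir replicate 3, beside 14.4 to 15. CYP4F2 read 7.15 in ISRIB replicate 4, beside 8.75 to 8.92. UGT2B10 read 11.2 in DMSO replicate 1, beside 13.7 to 14.1, SULT1A2 28.2 in DMSO replicate 4, beside 31.5 to 31.9, and the UGT1A8 row 7.07 in replicate 3 of bortezomib with nelfinavir, beside 7.69 to 7.82.

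The effect of a second drug differed with bortezomib present in 11 cases by edgeR's interaction test. For nelfinavir the difference on the log2 scale was -1.76 for CYP4F3, -1.48 for the UGT1A8 row, -1.47 for SULT1A2, -1.46 for CYP1A1, -1.16 for CYP4F11, -1.10 for CYP4F12, -0.89 for UGT2B7, -0.77 for SULT1A1 and -0.33 for GSTO1. For ISRIB it was -1.34 for CYP1A1 and -0.85 for SULT1A2. The value for GSTO1 was lost in 16 of the 24 fits that left out 1 library.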

How the results depend on the processing

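The 51 calls gave 510 values over the alternatives, of which 492 kept their direction and their side of the threshold, 16 kept the direction only and 2 reversed. UGT2B7 with bortezomib went to -0.19 with library totals alone, and SULT1A1 with bortezomib to 0.20 when the SULT1A rows were summed, where the rows take the value of their sum. Each library left out in turn gave 1224 values, of which 1149 stayed called, 75 did not and 0 reversed. Library totals alone shifted the median of all genes by -0.497 with bortezomib, called 1490 genes higher and 6265 lower over all genes, where TMM called 3500 and 3274, and gave 14 drug-metabolism genes lower with bortezomib, not 9, with 6 higher. The total of the drug-metabolism genes then came to 1241, 1237, 1478, 774.1, 607.6 and 612.2 CPM in DMSO, ISRIB, nelfinavir, bortezomib, bortezomib with nelfinavir and bortezomib with ISRIB. On adding nelfinavir to bortezomib, 1 gene was called higher, CYP1A1, with no filter (0.42) and with the replicate block (0.37), and 0 to 1 with a library left out. On adding ISRIB to bortezomib, a library left out gave 0 to 1 higher and 2 to 4 lower, and in the interaction of ISRIB with bortezomib 0 to 1 higher, CYP3A5 without bortezomib replicate 2. The cause of these shifts was not tested.

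Same-numbered libraries correlated above 0.1 in 10 of 60 pairs and others in 7 of 180. Of 24 libraries, 14 were closest on average to their own number among the 4 replicate numbers. Some structure shared by number is therefore possible. The labels do not say that a number marks a shared culture or day, and the main fit left the libraries unpaired. In the ISRIB group the replicate numbers do not follow the order of the library numbers in the labels, as they do in the other groups. Whether the ISRIB numbers match those of the other groups was not tested, and both this check and the replicate block take them as given. With the replicate block 7 genes were higher and 9 lower with bortezomib. Replicates differed beyond sampling noise, at a chi-square of at least 2.144 per degree of freedom. Genes at a few CPM carry wide errors at this depth, and the 27 genes under the filter could not be tested.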

Other observations

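Nelfinavir alone also changed genes around the drug-metabolism enzymes by more than 2-fold. The bile acid exporter subunit SLC51A rose (2.53 ± 0.17 (SE), edgeR adjusted p = 1.35e-13), as did the repressor NR0B2 (1.51 ± 0.08 (SE), edgeR adjusted p = 7.90e-16) and the aldo-keto reductases AKR1C1 (1.32 ± 0.10 (SE), edgeR adjusted p = 7.41e-12) and AKR1C2 (1.18 ± 0.12 (SE), edgeR adjusted p = 3.71e-09). CYP7A1 fell (-1.11 ± 0.35 (SE), edgeR adjusted p = 0.022), and so did the liver factor FOXA1 (-1.05 ± 0.26 (SE), edgeR adjusted p = 0.00326).

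For several of these genes the effect of nelfinavir differed with bortezomib present. The interaction of nelfinavir with bortezomib was -1.13 ± 0.11 (SE), edgeR adjusted p = 4.68e-09 for NR0B2 and -1.14 ± 0.16 (SE), edgeR adjusted p = 2.25e-06 for HNF4A, a main activator of liver genes. It was positive for FOXA2 (1.06 ± 0.14 (SE), edgeR adjusted p = 7.99e-07) and for AHR (1.04 ± 0.20 (SE), edgeR adjusted p = 3.45e-04). Among transporters it was -1.23 ± 0.15 (SE), edgeR adjusted p = 1.76e-07 for the exporter ABCC3 and -1.20 ± 0.24 (SE), edgeR adjusted p = 3.59e-04 for SLC51A. Of the 29 other metabolising enzymes, 1 had a positive and 13 a negative called interaction, beside 9.74% and 10% of all genes, and of the 18 transporters 0 and 7. On adding ISRIB to bortezomib, the exporter ABCG2 rose (1.82 ± 0.57 (SE), edgeR adjusted p = 0.0328) and ADH6 fell (-1.21 ± 0.31 (SE), edgeR adjusted p = 0.00848).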
